A study of Mus musculus with 18 samples.

Results

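The genes described here are the EGF family ligands Egf, Tgfa, Areg, Ereg, Btc and Hbegf and the ErbB receptors Egfr, Erbb2 and Erbb3. A probe set whose single gene symbol was exactly that of the gene was found for 8 of the 9, among 19938 genes measured; Areg (amphiregulin) has no such probe set in the annotation used here and its expression was not analysed. Crypt cells of the mouse small intestine were sorted on the signal of a reporter allele of Flattop, a gene linked to planar cell polarity, and their RNA was hybridised to 1-colour arrays. The 3 groups were the reporter-high, reporter-low and reporter-negative gates, each with 2 arrays, and each array held RNA pooled from 2 animals. All mice in these groups were 4 months old, of strain C57Bl6/J and of genotype FltpZV/+, so that the negative gate carried the same reporter allele as the other gates. The other 12 of the 18 samples come from a lineage-tracing cross and were not analysed here. Whether same-numbered arrays of different gates share animals is not stated.

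ErbB receptors are receptor tyrosine kinases that pair on binding a ligand and pass the signal to the RAS-ERK and PI3K-AKT cascades. EGF family ligands are made as membrane-bound precursors and are released by ADAM metalloproteases, Adam17 above all. Egfr binds Egf, Tgfa, Areg, Ereg, Btc and Hbegf. Erbb2 has no known ligand and acts as a partner, while Erbb3 binds some neuregulins and has little kinase activity of its own. In the small intestine, EGF is a standard supplement of crypt organoid cultures, Paneth cells are a known source of Egf and Tgfa, and the ErbB inhibitor Lrig1 marks crypt stem cells.

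The sequences below are the 250 bases before the start of Egf, the member that was higher in the reporter-high gate, and of Erbb2, the member lower in both reporter-positive gates whose upstream sequence was at hand. They are from RefSeq (GRCm38.p6) and run 5′ to 3′, from chr3:129755323-129755572 on the minus strand for the more upstream of the Egf starts listed and from chr11:98412234-98412483 on the plus strand for Erbb2. Capitals mark matches, on either strand, to the TATA box TATAAA, the GC box GGGCGG, the CCAAT box CCAAT or the E-box CAGCTG.
Egf: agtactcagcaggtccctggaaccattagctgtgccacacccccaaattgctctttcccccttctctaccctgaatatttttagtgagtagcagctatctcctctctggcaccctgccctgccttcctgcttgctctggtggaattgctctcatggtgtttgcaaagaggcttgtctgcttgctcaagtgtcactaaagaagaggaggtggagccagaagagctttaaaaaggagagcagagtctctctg
Erbb2: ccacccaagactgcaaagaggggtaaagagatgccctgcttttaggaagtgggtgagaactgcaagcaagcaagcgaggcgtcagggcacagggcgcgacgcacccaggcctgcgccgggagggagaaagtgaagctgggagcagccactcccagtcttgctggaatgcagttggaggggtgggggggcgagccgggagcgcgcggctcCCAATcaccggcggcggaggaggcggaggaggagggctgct
The Egf window held no match to these letters and had 50.4% G and C. The Erbb2 window held 1 CCAAT match, beginning 41 bases before the start, and had 66.0% G and C. Among all 32851 windows of this length in the table, the median was 52.4% G and C, 12.4% held the TATA box, 32.7% the GC box, 33.8% the CCAAT box and 13.0% the E-box. A match describes the letters only.

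The median value of the 6 arrays, over all probe sets, lay between 4.54 and 4.74 on the log2 scale. A background level of 4.23 was taken from chemosensory receptor genes. The share of genes above it was 69.4% for the second reporter-high array, against 61.3% to 65.4% for the other 5 arrays. The correlation across genes between the arrays of a gate was 0.946 in the reporter-high, 0.975 in the reporter-low and 0.981 in the negative gate. Calls that are lost without reporter-high replicate 2 are given below. All 9 epithelial markers listed averaged above background. In sorted pools, fewer cells of a type and less RNA per cell cannot be told apart. Changes were tested with limma, p-values were adjusted over all 19938 genes, and a gene was called at an adjusted p under 0.05.

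Against the negative gate, reporter-high cells had more Egf transcript and less Hbegf, Erbb2 and Erbb3. Reporter-low cells had less Hbegf and Erbb2. In high against negative cells 1 member was called higher, where 1.36% of all genes were, and 3 lower, where 3.35% of all genes were, so that 4 of 8 members passed a test that 4.71% of all genes passed. In low against negative cells 2 members were called, both lower, where 5.96% of all genes were called, 3.42% higher and 2.54% lower. None of the 8 members was called between high and low cells by limma (smallest adjusted p = 0.0607), where 4.91% of all genes were, 1.01% higher and 3.89% lower. The arrays of the gates compared did not overlap for 4, 6 and 4 members in high against negative, low against negative and high against low cells, shares of the 8 to be read against 55.2%, 51.5% and 55.8% of all genes. An unadjusted limma p under 0.05 was reached by 4, 2 and 3 members in these comparisons, in the same order. Among all genes the shares were 22.2%, 18.5% and 22.6%. In high against low cells the count of members called was 0 in all 14 alternative settings of limma. The median log2 difference over the members was -0.22, -0.08 and -0.04 in high minus negative, low minus negative and high minus low cells, against 0.10, -0.03 and 0.13 over all genes. Over genes averaging above background the medians were -0.07, -0.04 and -0.02 in that order.

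**Figure D1:**
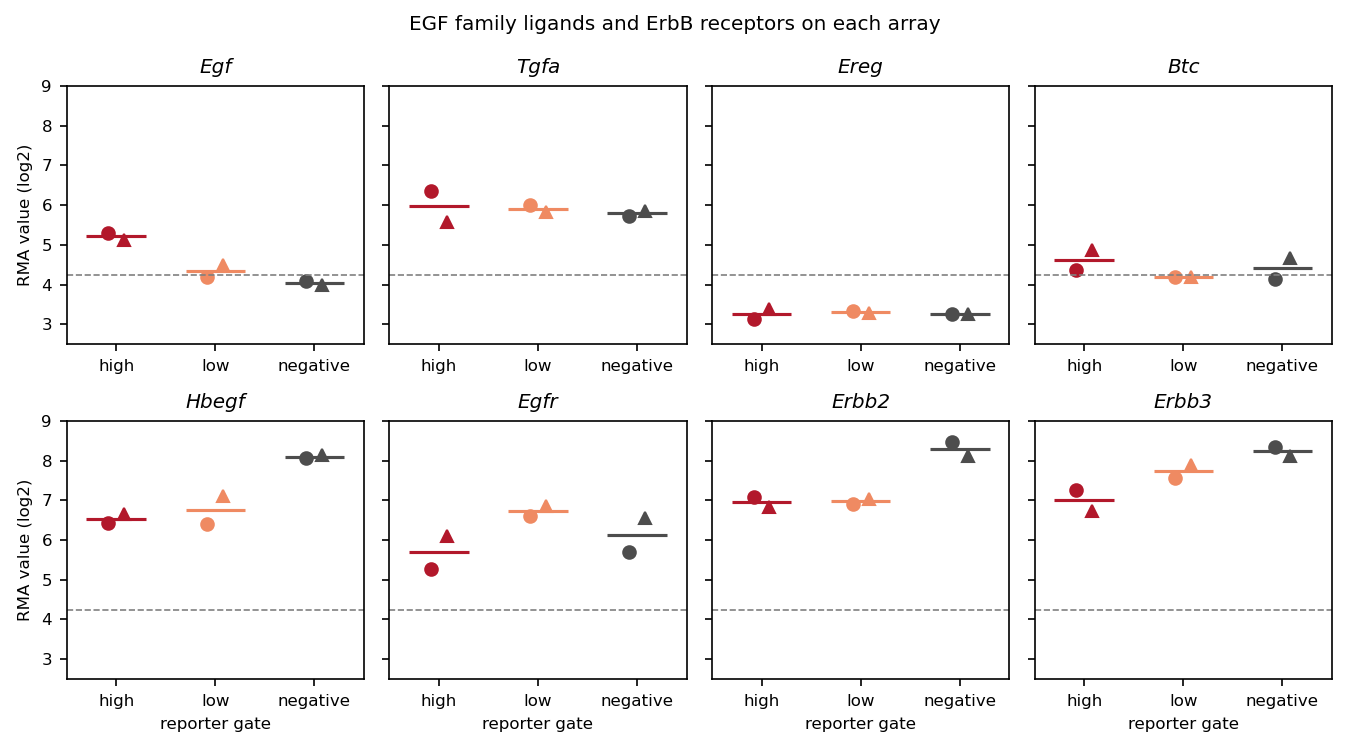
RMA values (log2) of the 8 measured members on each array, by reporter gate; circles are replicate 1, triangles replicate 2, horizontal bars the mean of the gate, and the dashed line the background level of 4.23. Egf lies above the line on both high arrays, on 1 low array and on no negative array, Hbegf and Erbb2 are highest on both negative arrays, and Ereg lies below the line on all 6 arrays.

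Among the ligands, Egf (epidermal growth factor) had its highest values in the reporter-high gate. Its RMA values, all on the log2 scale, were 5.30 and 5.13 on the high arrays, 4.19 and 4.50 on the low arrays, and 4.10 and 4.00 on the negative arrays. The gates did not overlap, and no negative array and 1 of 2 low arrays lay above the background level. Egf averaged 5.22 ± 0.12 (SD, n = 2) in high, 4.35 ± 0.22 in low and 4.05 ± 0.07 in negative cells. The fitted difference of high minus negative cells was 1.17 ± 0.20 (SE; limma adjusted p = 0.0272), and against the background level the rise was at least 0.98. High minus low cells differed by 0.87 ± 0.20 (adjusted p = 0.0607). Low minus negative cells, with no negative array above background, had a fitted difference of 0.30 ± 0.20 (adjusted p = 0.545), which was not called. Without negative replicate 1 or 2 the call in high cells was lost, with differences of 1.22 (adjusted p = 0.168) and 1.11 (adjusted p = 0.181). It was 1.25 (adjusted p = 0.0483) without high replicate 2.

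Hbegf (heparin-binding EGF-like growth factor) was lower in both reporter-positive gates. It measured 6.42 and 6.65 on the high arrays, 6.4 and 7.11 on the low arrays, and 8.06 and 8.14 on the negative arrays. Both negative arrays were above all 4 others, while the high and low arrays overlapped. Hbegf fell 2.96-fold in high cells, to 6.53 ± 0.17 (SD, n = 2), and 2.53-fold in low cells, to 6.76 ± 0.50, against 8.10 ± 0.06 in negative cells. On the log2 scale the differences were -1.56 ± 0.26 (SE; limma adjusted p = 0.0268) and -1.34 ± 0.26 (adjusted p = 0.0337). High minus low cells differed by -0.22 ± 0.26 (adjusted p = 0.621; 95% interval from -0.85 to 0.41). The call in high cells was lost without any 1 of the arrays compared, with adjusted p of 0.168 and 0.175 (negative replicates 1 and 2) and 0.05002 and 0.0556 (high replicates 1 and 2). In low cells it was lost without negative replicate 1 (adjusted p = 0.178), negative replicate 2 (adjusted p = 0.196) or low replicate 1 (adjusted p = 0.129). Quantile normalization of the gene values also ended both calls (adjusted p = 0.0758 in high and 0.0553 in low cells).

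Transforming growth factor alpha, the product of Tgfa, showed no called difference. Tgfa measured 6.36 and 5.58 on the high arrays, 6.00 and 5.83 on the low arrays, and 5.74 and 5.85 on the negative arrays. The high arrays enclosed all the others. The difference was 0.18 ± 0.28 (SE) in high minus negative cells (95% interval from -0.48 to 0.83; adjusted p = 0.723), and 0.12 ± 0.28 in low minus negative cells (95% interval from -0.54 to 0.78; adjusted p = 0.921). The high minus negative value rests on which high array is used, since it was -0.21 without high replicate 1 and 0.56 without high replicate 2, neither called. Low minus negative cells ran from 0.03 to 0.21 when 1 array was left out.

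Betacellulin and epiregulin, encoded by Btc and Ereg, were at or near background. Btc measured 4.37 and 4.87 on the high arrays, 4.18 and 4.20 on the low arrays, and 4.15 and 4.68 on the negative arrays, so that both low arrays lay below the background level. Its fitted high minus low difference was 0.43 ± 0.26 (SE; limma adjusted p = 0.355) and was not called. Ereg measured 3.13 and 3.38 on the high arrays, 3.35 and 3.29 on the low arrays, and 3.27 and 3.26 on the negative arrays. No array lay above background for Ereg, which gives its 3 differences (from -0.06 to 0.05) no bearing on its level.

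Among the receptors, Erbb2 was lower in both reporter-positive gates by about the same amount. Erbb2 measured 7.07 and 6.83 on the high arrays, 6.91 and 7.03 on the low arrays, and 8.46 and 8.13 on the negative arrays. The negative arrays were above all 4 others, and the low arrays lay within the range of the high arrays. Erbb2 fell 2.54-fold in high cells, to 6.95 ± 0.17 (SD, n = 2), and 2.5-fold in low cells, to 6.97 ± 0.09, against 8.29 ± 0.24 in negative cells. The log2 differences were -1.34 ± 0.21 (SE; limma adjusted p = 0.022) and -1.32 ± 0.21 (adjusted p = 0.0162). High minus low cells differed by -0.02 ± 0.21, with a 95% interval from -0.51 to 0.47 (adjusted p = 0.956). The call in high cells was lost without negative replicate 1 (adjusted p = 0.166), negative replicate 2 (adjusted p = 0.137) or high replicate 2 (adjusted p = 0.0528). In low cells it was lost without any 1 of the arrays compared, with adjusted p of 0.134 and 0.0749 (negative replicates 1 and 2) and 0.0906 and 0.0833 (low replicates 1 and 2).

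Erbb3, the receptor that signals through its partners, was lowest in the high gate and intermediate in the low gate. It measured 7.26 and 6.74 on the high arrays, 7.57 and 7.89 on the low arrays, and 8.35 and 8.11 on the negative arrays. None of the gates overlapped. Erbb3 fell 2.35-fold in high cells, to 7.0 ± 0.36 (SD, n = 2), against 8.23 ± 0.17 in negative cells, a log2 difference of -1.23 ± 0.25 (SE; limma adjusted p = 0.0426). Low cells averaged 7.73 ± 0.23, and differed from negative cells by -0.50 ± 0.25 (adjusted p = 0.362). High minus low cells differed by -0.73 ± 0.25 (adjusted p = 0.155). The call in high cells was close to the threshold. It was lost without negative replicate 1 (adjusted p = 0.25), negative replicate 2 (adjusted p = 0.179) or high replicate 2 (adjusted p = 0.0903), and without either low array, which enters only through the shared spread (adjusted p = 0.0699). Quantile normalization gave an adjusted p of 0.0921, and the fit of the arrays of these gates alone, the robust prior and array weights gave 0.0699, 0.0576 and 0.0579.

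Egfr, the receptor of all the ligands listed here, varied more between the arrays of the high and of the negative gate than the other receptors did. Egfr measured 5.27 and 6.11 on the high arrays, 6.59 and 6.86 on the low arrays, and 5.70 and 6.55 on the negative arrays. The low arrays were above the other 4, and the high and negative arrays overlapped. Egfr averaged 5.69 ± 0.60 (SD, n = 2) in high, 6.73 ± 0.19 in low and 6.12 ± 0.60 in negative cells. The largest difference, high minus low cells, was -1.04 ± 0.37 (SE; limma adjusted p = 0.173; 95% interval from -1.93 to -0.15). Low minus negative cells differed by 0.61 ± 0.37 (adjusted p = 0.501) and high minus negative cells by -0.43 ± 0.37 (adjusted p = 0.515). The high minus negative value was -0.01 without high replicate 1 or negative replicate 2, and -0.86 without high replicate 2 or negative replicate 1. Low minus negative cells differed by 0.18 without negative replicate 1 and by 1.03 without negative replicate 2. High minus low cells differed by -0.62 without high replicate 1 and by -1.46 without high replicate 2, and none of these values was called.

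**Figure D2:**
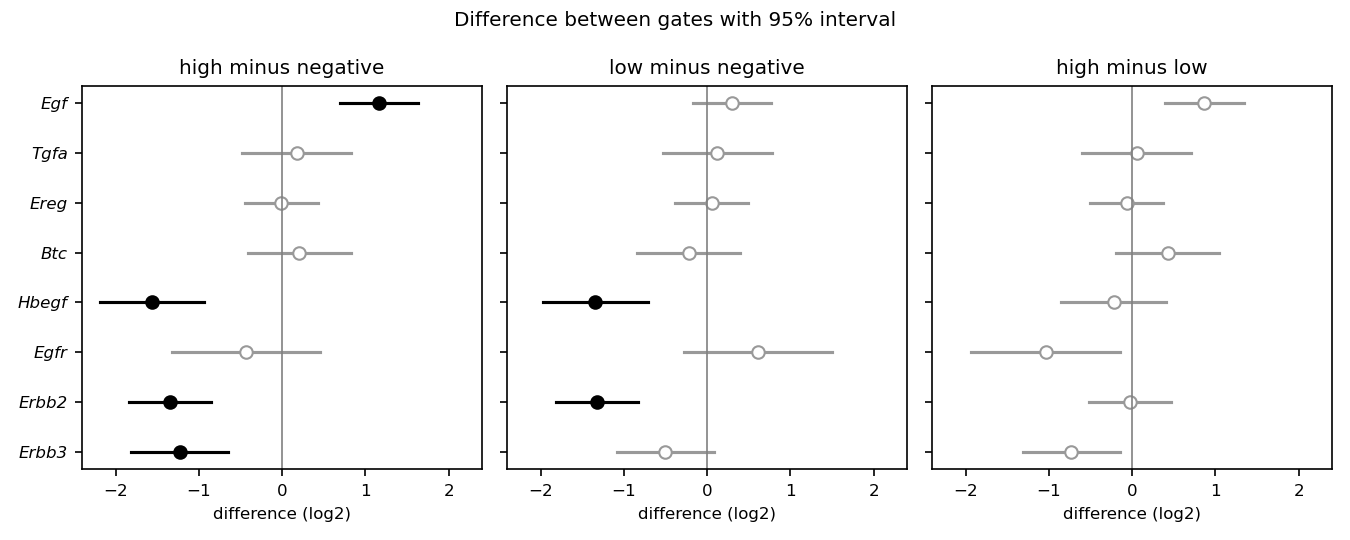
Difference between gates (log2) for the 8 measured members in high minus negative, low minus negative and high minus low cells; points are limma estimates, lines 95% intervals, and filled points those with an adjusted p under 0.05 over all genes. Egf lies to the right of 0 and Hbegf, Erbb2 and Erbb3 to the left in high minus negative cells, Hbegf and Erbb2 to the left in low minus negative cells, and no point is filled in high minus low cells.

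For the 4 called members, the 3 genes with the most similar pattern over the 6 arrays were sought among 6473 genes above background whose values spanned at least 1 log2 unit. Similarity was Pearson's r, given as a description, since the arrays share gates and many genes follow the same contrasts. For Egf these were Slc1a4, an amino acid transporter gene (r = 0.995), Arhgap21 (r = 0.993) and Sec11c, a signal peptidase subunit gene (r = 0.992). For Hbegf they were Thy1, a surface glycoprotein gene of mesenchymal cells and mouse T cells (r = 0.994), Gpr89 (r = 0.993) and Acat1, a mitochondrial thiolase gene (r = 0.993). For Erbb2 they were Fahd1 (r = 0.992), Prkra (r = 0.99) and the bile acid transporter gene Slc51a (r = 0.988). For Erbb3 they were Tmem41b (r = 0.999), Kat14 (r = 0.997) and Hadha, a gene of mitochondrial fatty acid oxidation (r = 0.993). Slc1a4 measured 7.76 and 7.09 on the high, 4.75 and 5.76 on the low, and 4.74 and 4.19 on the negative arrays. Thy1 measured 6.02 and 6.53 on the high, 6.07 and 7.07 on the low, and 8.0 and 8.21 on the negative arrays.

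The remaining ligands and receptor of the family were near or below background. Nrg1, Nrg3 and Nrg4, neuregulin genes, and Erbb4, the fourth receptor, were above background on no array. Epgn (epigen) was above it on 1 array, of the high gate, and Nrg2 on 3. None of these 6 genes was called in any comparison. Of these, Nrg1 and Nrg2 encode ligands of Erbb3, and their highest gate mean was 4.45, that of Nrg2 in high cells.

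Of the rest of the pathway, 12 genes were called in high against negative cells, 10 of them lower. Among all genes 4.71% were called there, 667 of 939 of them lower. Of 14 ligand release genes, 2 fell and 0 rose. They were Adam10, a metalloprotease that releases Egf and Btc, and Frmd8, a stabiliser of the complex of Adam17 with its rhomboid-like partners. The mean of Adam10 was 6.43 ± 0.07 (SD, n = 2) in the high gate, against 7.46 ± 0.13 in the negative gate. That of Frmd8 was 5.12 ± 0.13 in the high gate, against 6.44 ± 0.08 in the negative gate. Adam17 itself differed by -0.69 ± 0.22 (SE; limma adjusted p = 0.136). Of 25 adaptor and kinase genes, 2 fell and 0 rose, namely the scaffold gene Ksr1 by 1.46 ± 0.20 and the ERK pathway kinase gene Map2k2 by 1.12 ± 0.24. Of 25 inhibitor genes, 3 fell and 0 rose. The ubiquitin ligase genes Cbl and Cblc, whose products mark active receptors for degradation, fell by 1.87 ± 0.29 and 1.25 ± 0.21, and Lrig3 fell by 1.17 ± 0.23. Lrig1 differed by -0.05 ± 0.30 (adjusted p = 0.935). Of 18 ERK-induced genes, Phlda1 rose by 1.74 ± 0.22 and Ccnd1 (cyclin D1) fell by 1.33 ± 0.25. Of 15 genes of receptor traffic, Epn2 rose by 0.96 ± 0.18, and the clathrin adaptor gene Ap2m1 and the endosomal sorting gene Hgs fell by 1.47 ± 0.22 and 1.17 ± 0.23. The median log2 difference was -0.03 for ligand release, -0.20 for adaptors and kinases, -0.11 for inhibitors, -0.29 for ERK-induced genes and -0.34 for receptor traffic, against 0.10 over all genes. Over genes averaging above background, as most genes of these lists did, the median was -0.07. All 12 of these calls ended when a negative array was left out, with adjusted p between 0.108 and 0.258 without replicate 1 and between 0.14 and 0.22 without replicate 2. Without high replicate 2 those of Adam10, Cblc, Ccnd1, Epn2, Frmd8, Hgs, Lrig3 and Map2k2 were lost (adjusted p between 0.0535 and 0.0929). Leaving out either low array, or both, ended those of Adam10, Ccnd1, Epn2, Hgs, Lrig3 and Map2k2 (adjusted p between 0.0636 and 0.0907). Quantile normalization ended those of Adam10, Cblc, Ccnd1, Hgs, Lrig3 and Map2k2 (adjusted p between 0.0649 and 0.114). With the robust prior (adjusted p between 0.0542 and 0.0725) and with array weights (adjusted p between 0.0538 and 0.0596), Adam10, Epn2, Hgs, Lrig3 and Map2k2 lost theirs.

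In low against negative cells, where 5.96% of all genes were called, 5 of 18 ERK-induced genes rose and 3 fell. The ETS factor genes Etv1 and Etv5 were among those that rose, and Etv1 had the largest difference. Etv1 measured 8.73 and 8.05 on the low arrays, against 4.04 and 3.97 on the negative arrays, neither above background, a rise of at least 4.16. Etv5 averaged 6.28 ± 0.10 (SD, n = 2) in low and 4.76 ± 0.30 in negative cells. Phlda1 rose by 1.68 ± 0.22 (SE) and Dusp6, the phosphatase gene that is both induced by and directed against ERK, by 1.49 ± 0.26. Egr1 rose by 0.87 ± 0.19 (limma adjusted p = 0.0496), and Ccnd1, Ier3 and Myc were the 3 that fell. Of 25 inhibitor genes, 2 rose and 0 fell: Dusp6, which stands in both lists, and Errfi1, which encodes the ErbB kinase inhibitor Mig6 and rose by 1.51 ± 0.27. Of 25 adaptor and kinase genes only Braf rose, by 1.37 ± 0.29, and 0 fell. Frmd8 alone of 14 ligand release genes was called, and fell by 1.27 ± 0.20. Of 15 receptor traffic genes, Sh3kbp1, an adaptor gene of Cbl-linked endocytosis, and Rab7, of late endosomes, rose by 1.98 ± 0.21 and 1.0 ± 0.19. The median log2 difference was 0.29 for ERK-induced genes, 0.20 for inhibitors, 0.05 for adaptors and kinases, -0.08 for ligand release and -0.03 for receptor traffic, against -0.03 over all genes. Over genes averaging above background the median was -0.04. Leaving out negative replicate 1 ended the calls of Braf, Ccnd1, Dusp6, Errfi1, Etv5, Frmd8, Phlda1, Rab7 and Sh3kbp1 (adjusted p between 0.057 and 0.224), and leaving out negative replicate 2 ended all of these but that of Sh3kbp1 (adjusted p between 0.0861 and 0.243). Braf, Ccnd1, Etv5, Frmd8 and Rab7 lost theirs without low replicate 1 (adjusted p between 0.065 and 0.17), and the same genes with Dusp6 and Errfi1 without low replicate 2 (adjusted p between 0.0543 and 0.203). Called ERK-induced genes numbered 1 without either negative array, 3 without low replicate 1 and 2 without low replicate 2. Etv1 passed in each of these fits. The robust prior ended the calls of Ccnd1 and Rab7 (adjusted p = 0.0619 and 0.0596), and quantile normalization that of Braf (adjusted p = 0.0785).

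In high against low cells, where 4.91% of all genes were called, the test gave 3 ERK-induced genes lower and 0 higher, and 2 inhibitor genes lower and 0 higher. The mean of Etv1 was 4.83 ± 0.03 (SD, n = 2) in the high gate, against 8.39 ± 0.48 in the low gate (limma adjusted p = 0.000953). Etv5 and Dusp6 fell by 1.94 ± 0.23 and 1.79 ± 0.26 (SE), and Cbl by 1.96 ± 0.29. Sh3kbp1, Rab7 and Pik3r1, the gene of the PI3K regulatory subunit, fell by 2.31 ± 0.21, 1.0 ± 0.19 and 1.23 ± 0.25. Without low replicate 1 the calls of Cbl, Pik3r1 and Rab7 were lost (adjusted p between 0.0903 and 0.143), and without low replicate 2 those of Cbl, Dusp6, Etv5, Pik3r1 and Rab7 (adjusted p between 0.0516 and 0.198). Rab7 lost its call without high replicate 1 (adjusted p = 0.056), and Dusp6, Pik3r1 and Rab7 lost theirs without high replicate 2 (adjusted p between 0.0505 and 0.0941). Pik3r1 and Rab7 also lost theirs without either or both negative arrays (adjusted p = 0.0897 and 0.0957), with quantile normalization (0.0537 and 0.0862), with the robust prior (0.0544 and 0.0653) and with array weights (0.0658 and 0.0688). Centring the arrays on their medians ended the call of Pik3r1 (adjusted p = 0.0504).

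**Figure D3:**
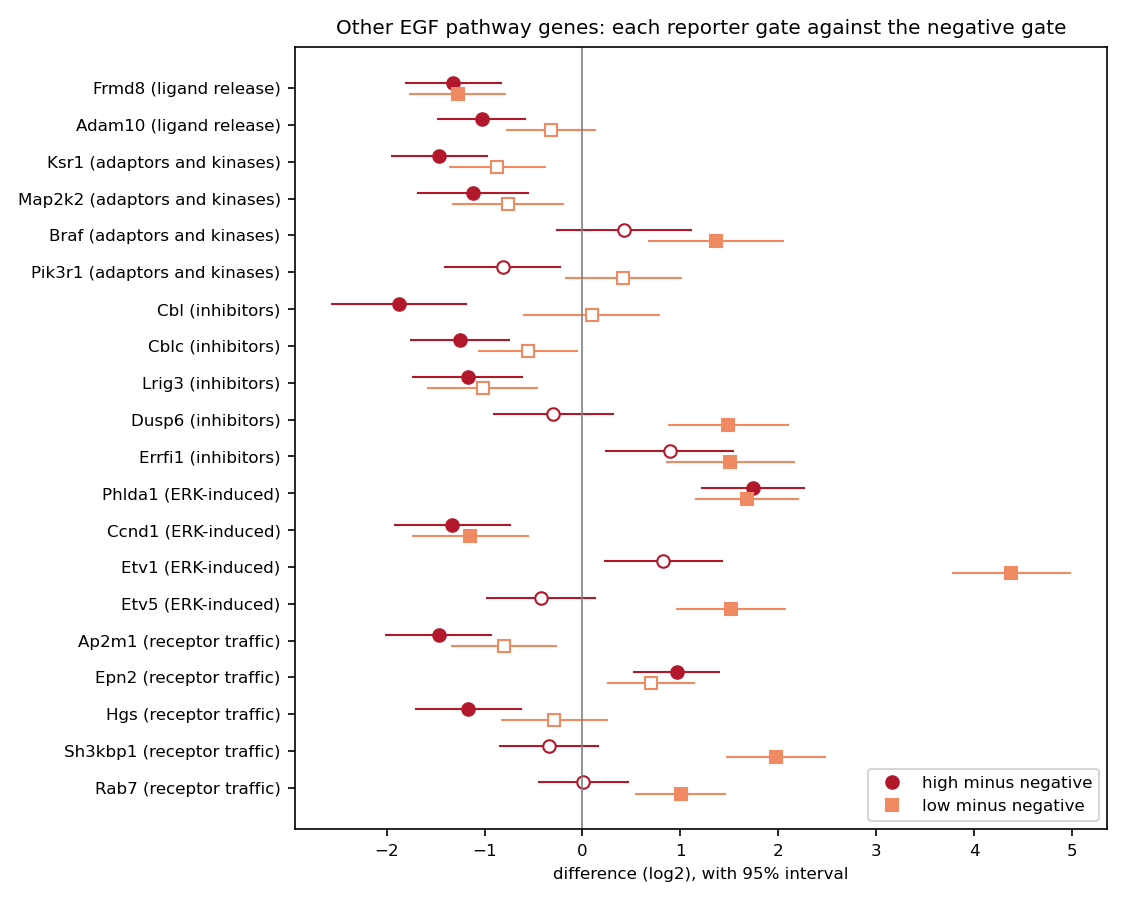
Difference (log2) of the high gate (circles) and the low gate (squares) from the negative gate for the 20 pathway genes named, with 95% intervals and the list of each gene in brackets; filled symbols have an adjusted p under 0.05 over all genes. Etv1, Etv5, Dusp6 and Sh3kbp1 have filled squares to the right of 0 and open circles, Cbl has a filled circle to the left and an open square, and both symbols are filled for Phlda1, to the right, and for Ccnd1 and Frmd8, to the left.

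Marker genes of several cell types moved with the gates in which the members differed. For each list, linear values were summed per array and are given on the log2 scale. Of 10 Paneth markers, 9 were called higher in high and 9 in low cells against negative cells, and 1 in high against low cells. Their sum was 15.50 to 15.77 in high, 15.05 to 15.18 in low and 12.45 to 12.85 in negative cells. The gates stood in the same order by mean Egf, which was 5.22 in high, 4.35 in low and 4.05 in negative cells. No negative array lay above background for Egf. Of 13 enteroendocrine markers, 0 were called in high and 13 were higher in low cells, with sums of 9.62 to 10.66 in high, 14.23 to 14.38 in low and 8.72 to 8.84 in negative cells. Beside the lower Hbegf and Erbb2 of both gates, 8 of 12 cell cycle genes were lower in high and 11 in low cells, and their sum was 10.54 to 10.86 in high, 10.45 to 10.59 in low and 11.88 to 11.93 in negative cells. Of 11 enterocyte markers, 3 were lower in high and 2 in low cells, with sums of 13.02 to 13.47 in high, 13.15 to 13.88 in low and 14.04 to 14.40 in negative cells. The sum of the 9 epithelial markers was 12.39 to 13.16 in high, 13.24 to 13.27 in low and 13.67 to 13.74 in negative cells, with 1 of them called lower in high cells and 0 called in low cells. The lowest of these values was that of high replicate 2. Of 9 stem cell markers, Lgr5 and Sox9 rose in high cells, by 1.21 ± 0.25 and 1.80 ± 0.17 (SE). The other 7 were not called in high minus negative cells, where the list median was -0.04. Rnf43 fell in low cells. The stem cell sum was 10.95 to 11.09 in high, 10.18 to 10.70 in low and 11.36 to 11.44 in negative cells. Of 7 goblet markers only Clca1 was called, and it fell in high and in low cells, by 1.39 ± 0.24 and 2.04 ± 0.24.

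Transcripts of immune cells, and Thy1 of the mesenchymal list, also differed between the gates. Of 10 lymphocyte markers, 9 were lower in high cells, and 8 were higher and 1 lower in low cells, with sums of 10.30 to 10.47 in high, 13.81 to 13.82 in low and 12.14 to 12.37 in negative cells. Among them Cd79a, a B cell marker, averaged below background over the 6 arrays and was above it on both negative arrays only. Of 9 myeloid markers, 2 were lower in high and 3 higher in low cells. Their sum was 9.77 to 9.84 in high, 11.72 to 11.92 in low and 9.87 to 9.98 in negative cells. Those higher in low cells were Tyrobp, Fcer1g and Lyz2, by 2.31, 2.27 and 1.57. The other 6 were not called there, and the list median in low minus negative cells was 0.21. Tyrobp and Fcer1g were the brightest of the list on the low arrays. Csf1r and Adgre1 averaged below background over the 6 arrays. Of 7 plasma and mast cell markers, 3 were lower and 1 higher in each reporter-positive gate, and their sum was 9.06 to 9.25 in high, 8.80 to 9.03 in low and 9.53 to 9.57 in negative cells. The immunoglobulin joining chain gene Jchain fell by at least 2.75 in both gates. Mcpt1, which encodes a protease of mast cells, fell by 3.29 ± 0.41 (SE) in high and 3.06 ± 0.41 in low cells, its relative Mcpt2 fell by 3.57 ± 0.39 in high and 2.92 ± 0.39 in low cells, and the receptor kinase gene Kit rose by 2.47 ± 0.22 in high and 2.07 ± 0.22 in low cells. The mesenchymal sum was 8.06 to 8.32 in high, 7.93 to 8.27 in low and 8.76 to 8.89 in negative cells. Pdgfra, Dcn, Lum, Acta2 and Des of its 10 markers averaged below background. Thy1 alone was called, lower in high cells (6.27 against 8.11 in negative cells), and was the brightest marker of the list on every array. The median log2 difference of the list was 0.15 in high minus negative and -0.07 in low minus negative cells. Of 6 endothelial markers 0 were called in any comparison, and 5 averaged below background. Of 17 dissociation-induced genes, such as Fos, 2 rose in high cells, and 4 rose and 1 fell in low cells. Egr1 and Ier3, both called in low cells, and Fos stand in the ERK-induced list as well. The part of any of these lists in the differences of Egf, Hbegf, Erbb2 and Erbb3 was not tested.

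**Figure D4:**
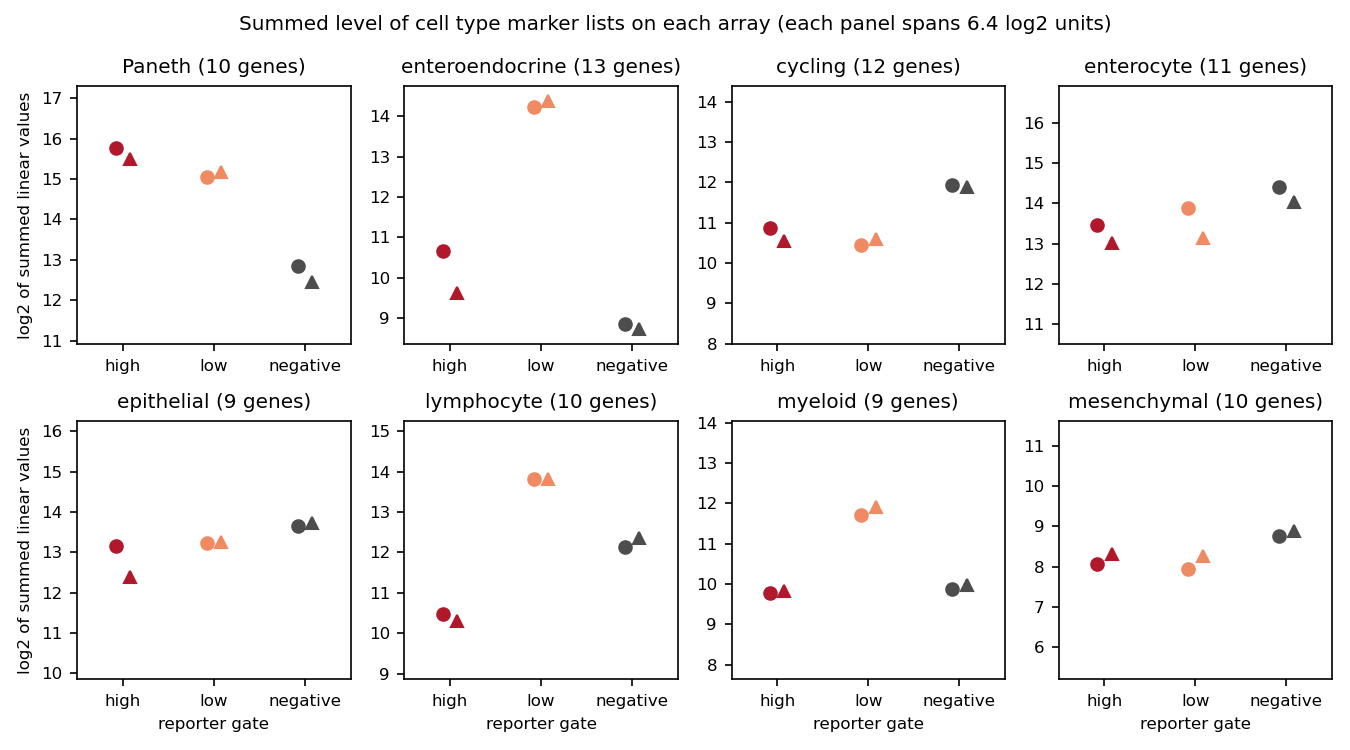
Summed linear values (log2 of the sum) of 8 cell type marker lists on each array, by reporter gate; circles are replicate 1 and triangles replicate 2, and every panel spans the same number of log2 units. The Paneth sum is highest on the high arrays and the enteroendocrine, lymphocyte and myeloid sums on the low arrays. The cell cycle, enterocyte, epithelial and mesenchymal sums are highest on the negative arrays. Tyrobp and Fcer1g are the brightest myeloid markers on the low arrays, and Thy1 the brightest mesenchymal marker on every array.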

How the data were processed

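The authors deposited log2 RMA values per probe set, made with Affymetrix Expression Console 1.3.0.187, per the submitters' processing notes. RMA understates differences of very dim and very bright probe sets. Per the labels' protocols, DNase-treated RNA was amplified by a whole-transcript method. Of 35556 probe sets, 21789 had 1 gene symbol, 1621 had several and 12146 were not listed; the brightest probe set of a gene was used, giving 19938 genes. The background level is the 95th percentile of the means of 1203 olfactory, vomeronasal and trace amine receptor genes. A called difference whose dimmer gate has no array above it is given as a lower bound in the text. Uncalled differences, figures and list medians show fitted values. Genes were tested with limma 3.58.1 in R 4.3.3 (lmFit, eBayes; 3 gate means in 1 fit of 6 arrays; two-sided; Benjamini-Hochberg), and the fit was tested on simulated data. The p-values rest only on the spread between pools of the same gate, taken over all 3 gates and drawn toward that of the other genes. Precision is limited by the 6 arrays. Figures were drawn with matplotlib 3.10.9 in Python 3.11.15. All members were named, with up to 4 called genes with the smallest p per pathway list and comparison. The 3 genes of similar pattern per called member were named too. Named after their values were seen were Adam17, Lrig1, Ccnd1, Egr1, Ier3 and Myc in low cells, and the members of the neuregulin list. So were Lgr5, Sox9, Rnf43, Clca1, Jchain, Mcpt1, Mcpt2, Kit, Thy1, Cd79a, Tyrobp, Fcer1g and Lyz2 among the markers. The members and lists were chosen with earlier results of these data known.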

Additional observations from a re-analysis of the deposited data

How the results depend on the processing

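Of 333 repeats of the members' differences under 14 alternatives, 27 lost a call and none gained one or turned a called direction. The other 306 kept their side of the threshold, most of them differences with no call to lose. Of 14 alternatives, the call in high minus negative cells was lost in 2 for Egf, 3 for Erbb2, 5 for Hbegf and 9 for Erbb3. In low minus negative cells it was lost in 4 for Erbb2 and 4 for Hbegf. The mean of all probe sets could not change the members' values, each having 1 probe set. Leaving out an array of the third gate repeated the fit of the compared gates alone. Members called in high minus negative cells were 2 with quantile normalization and 0 to 3 when 1 array was left out, and in low minus negative cells 1 with quantile normalization and 0 to 2 when 1 array was left out. In high minus low cells the count was 0 throughout. Of all genes, 939, 1188 and 978 were called in high minus negative, low minus negative and high minus low cells. Leaving out 1 array gave 13 to 1919, 187 to 1761 and 381 to 1739 in that order. Fits of the arrays compared alone gave 561 in high minus negative and 499 in high minus low cells, and array weights gave 620, 2150 and 607. Quantile normalization gave 621 in high minus negative cells, 324 higher and 297 lower against 272 and 667 without it, and in high minus low cells 326 higher and 616 lower against 202 and 776. The causes were not tested, except that a fit without an array has fewer samples. With the replicate number as a block, 4, 2 and 0 members and 1065, 1298 and 965 genes were called. The block changed no member's call, and of the pathway genes named it ended that of Lrig3 in high minus negative cells (adjusted p = 0.0531). Same-numbered arrays deviated from their gate means with correlations of 0.08 to 0.10 across genes, so the numbers were not taken as pairs. When a gate was left with 1 array, that array was assumed to vary like the others. Without detection calls, signal over background limits Btc, Ereg and the negative gate of Egf.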
